A study of Canis lupus familiaris with 8 samples.

Results

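Ion channel genes were examined in the left ventricle of 4 DM dogs and 4 control dogs on Affymetrix Canine Genome Arrays, each dog on an array of its own. A probe set, the group of short probes that reads 1 transcript, was taken as an ion channel when its gene symbol named a potassium (KCN), sodium (SCN), calcium (CACN, ITPR), chloride (CLCN, CLIC, CFTR), pacemaker (HCN), TRP or P2RX channel, or a sulfonylurea receptor (ABCC8, ABCC9). The choice used symbols alone and no signal. It gave 77 of the 23836 probe sets, for 46 of the 6540 genes that the array's annotation names. Of these, 38 probe sets read 21 potassium channel genes, 14 read 9 calcium channel genes, 13 read 8 chloride channel genes, 6 read 4 sodium channel genes, and 6 read 4 other genes (P2RX3, P2RX4, TRPM3 and TRPC4AP). TRPC4AP was matched by its name and is a protein that binds the TRPC4 channel, not a channel itself. Another 13149 probe sets have no listed symbol, so the 77 are the named channels of the array. HCN channels, sulfonylurea receptors, KCNQ1 and KCNJ11 are not among the named probe sets and were not analysed here.

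The DM dogs, named 0292, 0294, 1087 and 1111, were male mongrel dogs that had received 40 to 60 mg/kg alloxan intravenously, a toxin of the pancreatic beta cells, 4 weeks before the hearts were taken. Some DM dogs received a second injection, and which ones is not given in the sources used here. The control dogs, named D5, D6, D7 and D8, were male mongrel dogs without alloxan. All 8 dogs carried chronic instruments for hemodynamic recording, and the labels give a body weight of 23 to 27 kg for both groups. Other weight ranges stand in the methods and in the deposit's design text, and the design text also counts more dogs.

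Each heartbeat depends on the opening and closing of ion channels in turn. Sodium channels start the action potential of the myocyte, L-type calcium channels carry the plateau current that triggers contraction, and several potassium channels end it. The pore of such a channel is formed by an alpha subunit, while beta subunits and other partners set its gating and its amount at the membrane. In coronary smooth muscle, potassium channels set the membrane potential and with it the tone of the vessel, and chloride transporters of the CLCN family act mostly on the membranes of intracellular vesicles. In dogs and humans the transient outward current of the ventricle flows through Kv4.3 (KCND3) with its partner KChIP2 (KCNIP2).

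Signals are given as log2(normalized signal + 16) unless the deposited signal is named, and a log2 fold change, or log2 difference, is the mean of the DM dogs minus the mean of the control dogs on that scale. The offset of 16 makes the fold change of weak probe sets smaller. Groups are given as mean ± SD (n = 4 each), and the adjusted p is from limma with Benjamini-Hochberg adjustment over all 23836 probe sets. The number of arrays limits the precision. Signals were not compared between different probe sets as amounts of transcript. In whole ventricle, fewer cells of a type and less RNA per cell cannot be told apart.

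Measures of the arrays and of the cell types are given before the channels. The 18 hybridization controls are transcripts added to every sample in fixed amounts. Each array was deposited scaled to a trimmed mean of 500, so their signals are relative to the other signals of that array. Their mean deposited log2 signal was 16.32 ± 1.05 in DM dogs and 13.88 ± 1.27 in control dogs (SD, n = 4 each, two-sided p = 0.0571 by exact permutation). Control dog D8 had 15.77, inside the DM range of 15.17 to 17.72, while the other control dogs had 13.09 to 13.36. The sources used here give no scan date or array batch, so diabetes and a batch of arrays cannot be told apart. Cardiomyocyte markers ran from MYH7, at 15.83 to 16.76 in DM dogs and 16.78 to 17.00 in control dogs, down to MYL3. MYL3 had 4.85 to 8.10 in DM dogs and 6.00 to 14.01 in control dogs. Of 14 cardiomyocyte markers 8 are on the array, and their mean was 10.44 to 12.39 in DM dogs and 12.92 to 15.54 in control dogs, with D8 the lowest control dog. All 8 were lower in DM dogs, 7 of them at an unadjusted p under 0.05, and the difference of the means was -3.19 log2 (exact permutation test, two-sided p = 0.0286, the smallest that 4 against 4 allows, 0.114 after adjustment over 8 marker lists). The 5 listed markers of smooth muscle cells and pericytes had means of 8.85 to 10.05 in DM dogs and 10.38 to 11.22 in control dogs, with 4 lower and 3 of these at an unadjusted p under 0.05 (difference -1.73 log2; exact permutation p = 0.0286, adjusted 0.114). Endothelial markers differed by -0.77 log2 (exact permutation p = 0.114), macrophage and monocyte markers by 0.76 (p = 0.171), and those of fibroblasts, other leukocytes, nerve and glia, and adipocytes by -0.31 to 0.22. With the offset of 16 no marker could be at 0, and whether each marker was detected was not judged. The part of the array signals and of the cell markers in the channel results was not tested.

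Most channels had signals that the dogs of both groups shared. None of the 77 probe sets passed an adjusted p under 0.05 with limma (lowest 0.0608), where 4 of all 23836 probe sets did, which is 0.0168%. At an unadjusted p under 0.05, 6 channel probe sets (7.79%) were higher in DM dogs, against 7.8% of all probe sets, and 8 (10.4%) were lower, against 8.91%. All DM dogs lay above all control dogs in 3 channel probe sets (3.9%, against 4.93% of all) and below all of them in 7 (9.09%, against 5.87%). By the criteria of the methods, a two-class test at a nominal P of at most 0.01 with a change of at least 2-fold, 3 were higher (3.9%, against 2.45%) and 4 were lower (5.19%, against 2.52%). The channels as a whole were thus called at about the share of the array. The shares of lower calls lay above it, and so did the share of higher calls at the nominal P. Of the 7 separated lower probe sets, 4 read the single gene KCNE2. With 1 probe set per gene, 4 of 46 channel genes were lower at an unadjusted p under 0.05, against 12.5% of all genes. In 3 of the 46 every DM dog was below, against 8.73%. Both shares lay under those of all genes, while 2 of the 46 were lower at the nominal P, against 3.67%. The log2 fold change had a median of 0.14 in the channels and 0.06 in all probe sets. Without control dog D8, 2 channel probe sets passed the adjusted p (KCNE2 1583068_x_at and KCNJ8 1605765_at), against 1.36% of all, and 5 were higher and 8 lower by the unadjusted p, against 7.96% and 9.64% of all. The channels ranged from -3.44 (KCNE2) to 2.13 (CLIC2), with 44 above 0 and 33 below.

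The calls lay on different sides of 0 in the classes of channel, and all higher ones were lost with scaling to the hybridization controls. At an unadjusted p under 0.05, 7.8% of all probe sets were higher and 8.91% lower, and 5.87% were lower in every DM dog. Among 38 potassium channel probe sets, 6 (15.8%) were lower and 0 higher by this p. Their median log2 fold change was 0.09, and 7 (18.4%) were lower in every DM dog. Among 14 calcium channel probe sets, 2 (14.3%) were higher and 0 lower (median 0.78). Among 13 chloride channel probe sets, 4 (30.8%) were higher and 1 (7.69%) was lower (median -0.05). None of the 6 sodium channel probe sets passed (median 0.43). Among the 6 others TRPC4AP alone did, as lower (16.7%, median -0.19). These are counts of probe sets, and 4 of the 7 separated potassium channel probe sets read the single gene KCNE2. KCNE2 also gave 3 of the 6 lower by the unadjusted p, and the KCNJ8 call fell on the weaker of its 2 probe sets. On the strongest probe set of each gene, the potassium channel genes lower by this p were KCNE2, KCNIP2 and KCNS3. With 1 probe set per gene, 4 of all 46 channel genes were lower, against 12.5% of all genes. Differences between the classes were not tested.

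**Figure D1:**
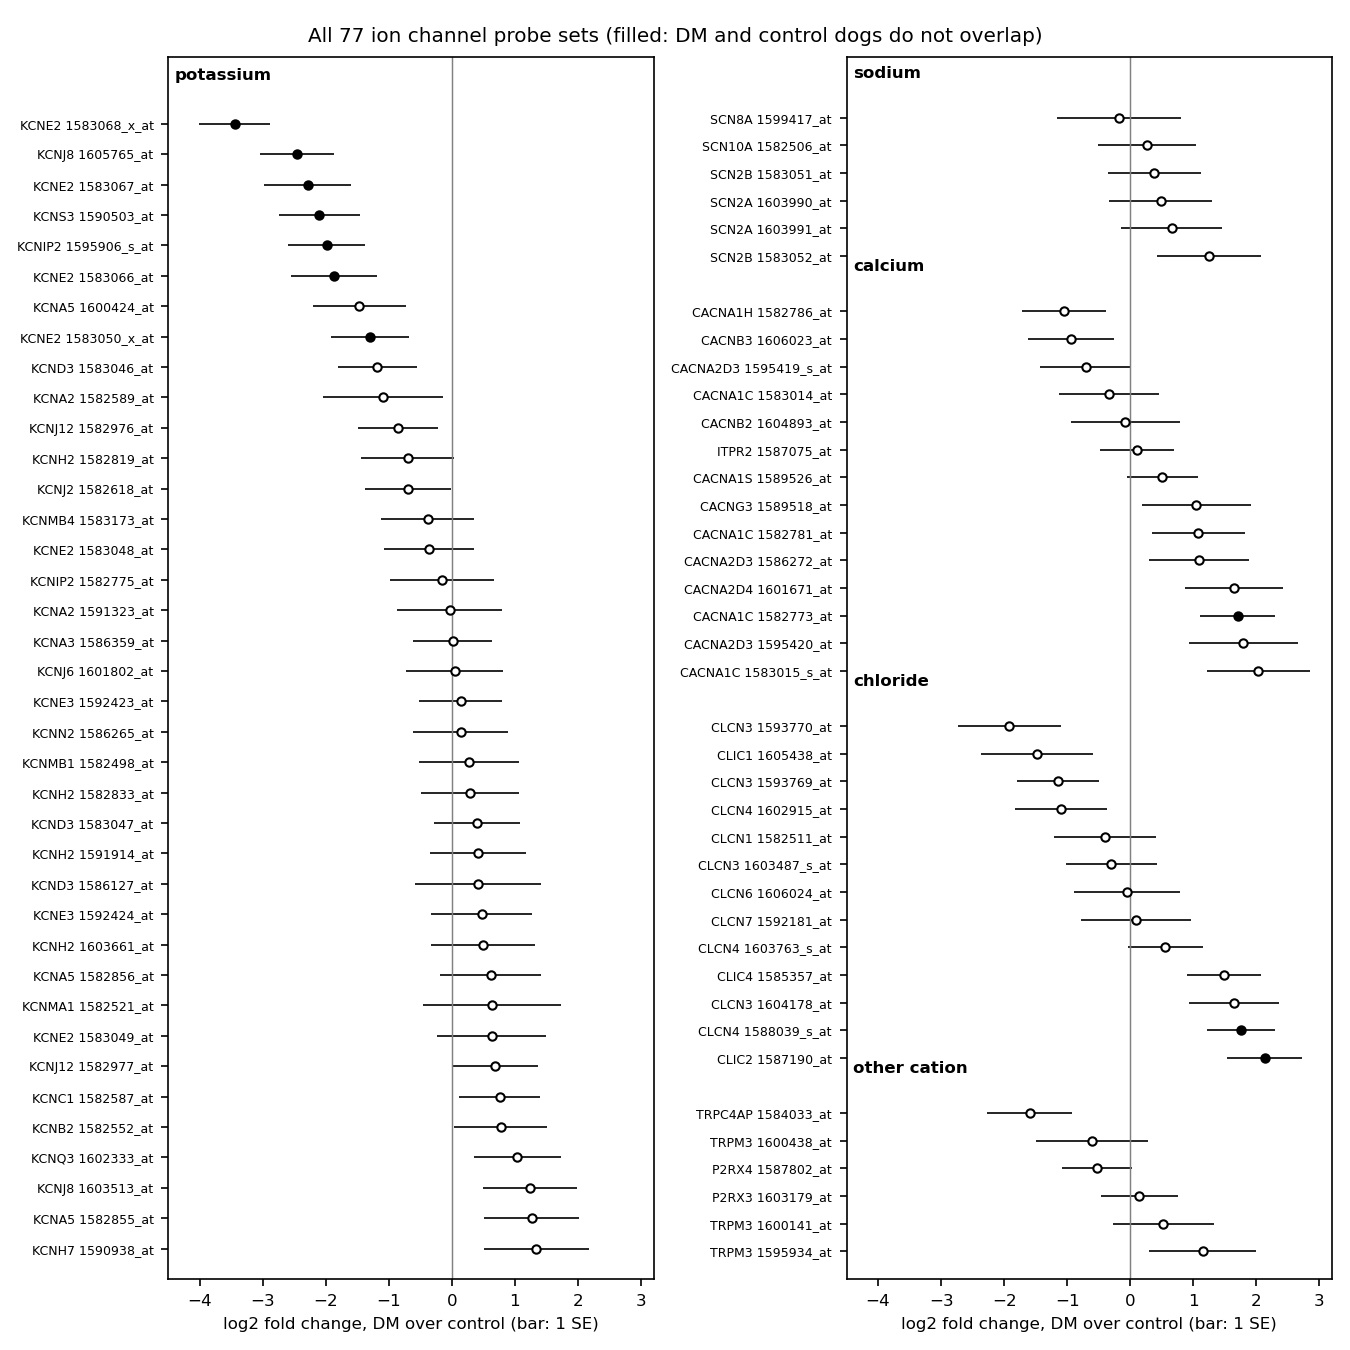
Log2 fold change (horizontal axis, DM over control dogs) of all 77 ion channel probe sets, ordered within each class. Points are estimates of limma, bars are 1 SE, and filled points mark the 10 probe sets in which the 4 DM dogs and the 4 control dogs do not overlap. All 7 filled potassium channel points lie below 0, from -3.44 to -1.30, and the 3 filled points of calcium and chloride channels lie at 1.71 to 2.13 (with scaling to hybridization controls, those of CLCN4 and CLIC2 fall below 0).

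The potassium channel subunit KCNE2 (MiRP1) showed the largest difference of any channel. It is a small beta subunit that joins KCNH2 (HERG), KCNQ1 and other voltage-gated potassium channels and changes their gating. On the array 6 probe sets, designed from 2 GenBank entries, read it. Probe set 1583068_x_at had deposited signals of 60.6, 15.7, 13.1 and 12.3 in DM dogs 0292, 0294, 1087 and 1111, against 522, 356, 229 and 257 in control dogs D5, D6, D7 and D8. On the normalized log2 scale these were 5.59, 4.78, 4.86 and 5.20 in DM dogs and 9.13, 8.74, 8.33 and 8.02 in control dogs. The groups were 2.43 log2 apart at their nearest dogs, and all 4 DM values lay in the range of the weakest 25% of the array's signals (below 5.75). The means were 5.11 ± 0.37 in DM dogs and 8.55 ± 0.48 in control dogs, a log2 difference of -3.44 (SE 0.56, adjusted p = 0.0608).

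This probe set came nearest to the threshold. Its adjusted p in limma was under 0.05 without control dog D8 (0.0295), without DM dog 1111 (0.0275), without D8 and 0292 together (0.0248), with median centring (0.0256), cyclic loess (0.0447), an offset of 64 (0.0268) or a variance trend with signal (0.0129). Over all alternatives it ran from 0.000532, with scaling to the hybridization controls, to 0.27, without control dog D5. In the two-class test with equal variances, run on the values used here, its p after Benjamini-Hochberg adjustment was 0.0400, and 22 probe sets of the array and no other channel were under 0.05. The suffix x marks probe sets in which some probes may also bind other transcripts.

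The other KCNE2 probe sets did not all share this size. From the same GenBank entry, 1583067_at had 4.96, 5.73, 7.92 and 6.34 in DM dogs and 9.06, 8.35, 8.32 and 8.37 in control dogs, with a log2 difference of -2.29 (SE 0.68, adjusted p = 0.13). Its neighbour 1583066_at had 4.95, 7.68, 7.52 and 6.59 in DM dogs and 8.65, 8.56, 8.02 and 8.97 in control dogs, with a log2 difference of -1.87 (SE 0.69, adjusted p = 0.20). Both were lower in every DM dog, with a wider spread among DM dogs than among control dogs. From the second entry, 1583050_x_at had 7.65, 7.56, 6.04 and 5.92 in DM dogs and 7.72, 8.23, 8.08 and 8.35 in control dogs, a log2 difference of -1.30 (SE 0.62, adjusted p = 0.31) in which the groups were only 0.07 log2 apart. Its neighbours 1583048_at and 1583049_at overlapped, with log2 differences of -0.36 (SE 0.72) and 0.63 (SE 0.86). The correlation between KCNE2 probe sets over the 8 dogs ran from -0.37 to 0.85, as a description, since the probe sets share their arrays. So 4 of the 6 probe sets were separated in the lower direction and 2 gave no separation.

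KCNJ8 (Kir6.1) forms the pore of ATP-sensitive potassium channels, above all in vascular smooth muscle, where it pairs with the sulfonylurea receptor ABCC9. Probe set 1605765_at had 5.90, 4.79, 5.22 and 5.27 in DM dogs and 8.31, 7.90, 8.02 and 6.78 in control dogs. In deposited signal these were 77.5, 15.9, 20.6 and 13.5 in DM dogs and 202, 145, 170 and 108 in control dogs. The log2 difference was -2.46 (SE 0.59, adjusted p = 0.088), and it was -1.60 with an offset of 64. Without control dog D8, the control dog nearest to the DM dogs, it was -2.78 with an adjusted p of 0.0476, in a range over the alternatives of 0.00258 to 0.308. The second KCNJ8 probe set, 1603513_at, went the other way without separating the groups. It had 9.87, 8.08, 9.26 and 7.87 in DM dogs and 6.38, 7.85, 6.79 and 9.12 in control dogs, with a log2 difference of 1.24 (SE 0.74, adjusted p = 0.43) that turned to -0.78 with scaling to the hybridization controls. Over the 8 dogs the 2 probe sets had r = -0.62, given as a description. The files used here do not say which of them reads the KCNJ8 transcript of dog heart better.

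KCNIP2 (KChIP2) is the calcium-binding partner that brings KCND3 to the membrane. Probe set 1595906_s_at, among the stronger signals of the channels, had 8.20, 8.52, 9.03 and 9.65 in DM dogs and 10.83, 11.80, 10.10 and 10.62 in control dogs. Deposited signals were 552, 405, 444 and 665 in DM dogs and 2097, 3949, 1251 and 1492 in control dogs. Every DM dog was thus below every control dog, with means of 8.85 ± 0.63 in DM dogs and 10.84 ± 0.71 in control dogs and a log2 difference of -1.99 (SE 0.61, adjusted p = 0.14). The second probe set, 1582775_at, was weak and overlapped, at 4.98 to 7.58 in DM dogs and 4.67 to 7.37 in control dogs (log2 difference -0.15, SE 0.82).

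The pore subunit KCND3 itself had 7.69, 8.05, 6.22 and 6.82 in DM dogs and 7.86, 8.01, 8.39 and 9.25 in control dogs on its strongest probe set, 1583046_at. Dog 0294 lay within the control range, and the log2 fold change was -1.18 (SE 0.63, adjusted p = 0.37). Its other probe sets had 0.40 and 0.41, with SE of 0.69 and 0.99.

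KCNS3 (Kv9.3) is a silent subunit that makes no channel alone and modifies Kv2 channels. Probe set 1590503_at had 6.07, 5.71, 4.68 and 7.32 in DM dogs and 8.03, 8.20, 8.15 and 7.81 in control dogs. The control dogs lay within a narrow range and all DM dogs lay below it, with a wide spread. The means were 5.95 ± 1.09 in DM dogs and 8.05 ± 0.18 in control dogs, and the log2 fold change was -2.10 (SE 0.64, adjusted p = 0.14).

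**Figure D2:**
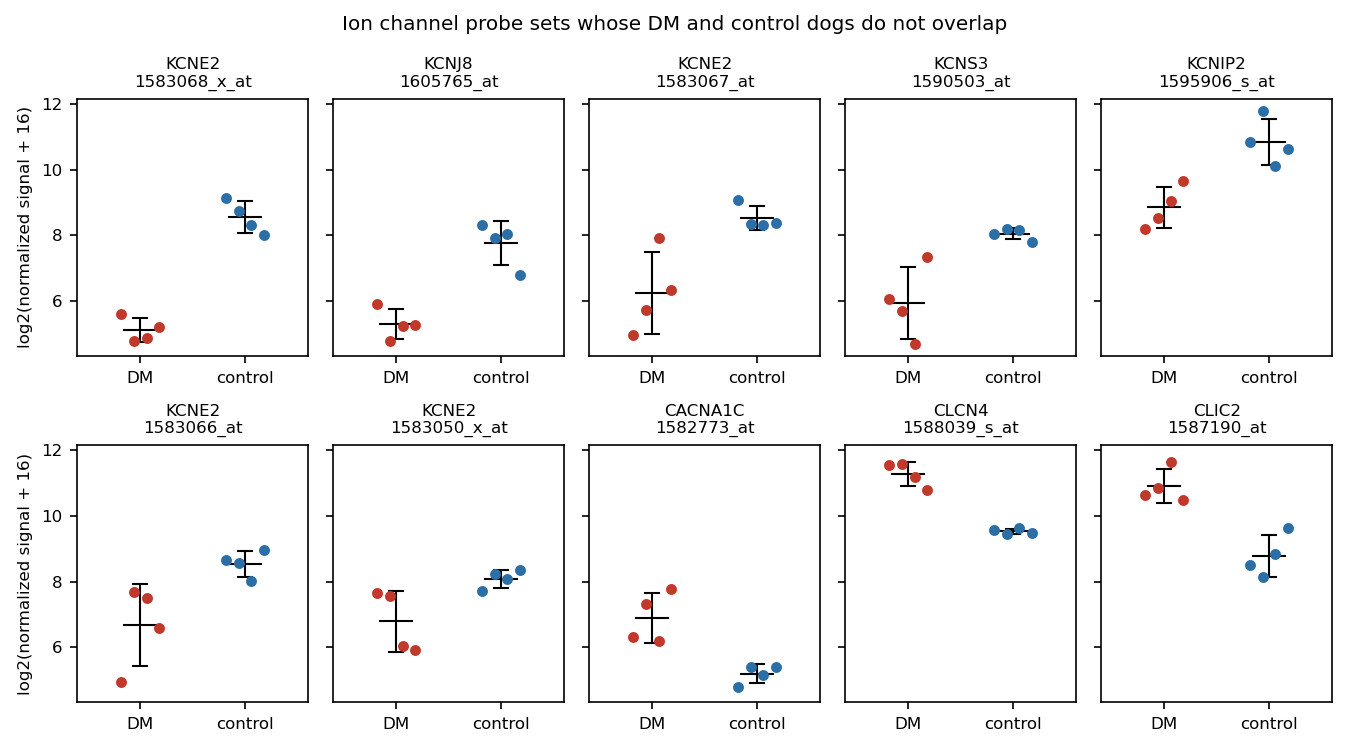
Log2(normalized signal + 16) of the 10 ion channel probe sets in which the 4 DM dogs (red, left in each panel) and the 4 control dogs (blue, right) do not overlap. Each point is 1 dog, the wide line is the group mean and the bar is 1 SD. KCNE2 1583068_x_at has the widest gap, 2.43 log2 between the nearest dogs, and KCNE2 1583050_x_at the narrowest of the potassium channels, 0.07 log2.

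The potassium channels that carry the main repolarizing currents were not separated. KCNH2 (HERG) forms the pore of the rapid delayed rectifier. Its strongest probe set, 1603661_at, had 9.26, 8.21, 7.76 and 8.93 in DM dogs and 8.94, 9.22, 8.60 and 5.41 in control dogs, with a log2 difference of 0.50 (SE 0.83, adjusted p = 0.80). This sign rested on control dog D8, without which it was -0.39, and it was -1.73 with scaling to the hybridization controls. The other 3 KCNH2 probe sets had -0.70, 0.29 and 0.41.

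KCNJ2 and KCNJ12 (Kir2.1 and Kir2.2) carry the inward rectifier current that holds the resting potential. KCNJ2 had 6.98, 7.38, 4.72 and 6.23 in DM dogs and 6.98, 7.33, 6.26 and 7.55 in control dogs (log2 difference -0.70, SE 0.68, adjusted p = 0.64). KCNJ12 had log2 differences of -0.86 (SE 0.64) and 0.69 (SE 0.68) on its 2 probe sets.

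KCNA5 (Kv1.5) carries the ultrarapid delayed rectifier, known chiefly from the atrium. On its strongest probe set, 1600424_at, it had 6.45, 9.74, 9.19 and 9.07 in DM dogs and 9.91, 10.08, 9.62 and 10.70 in control dogs. Dog 0292 was far below the other DM dogs, and dog 0294 lay within the control range (log2 difference -1.47, SE 0.74, adjusted p = 0.34). Without 0292 the value was -0.82. The other KCNA5 probe sets had 1.26 and 0.62.

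Among channels of vascular tone, KCNMA1, the pore of the large-conductance calcium-activated channel, had 5.07, 7.10, 9.25 and 4.52 in DM dogs and 4.64, 5.39, 4.78 and 8.61 in control dogs (log2 difference 0.63, SE 1.09). Its smooth muscle beta subunit KCNMB1 had 4.76, 7.58, 8.20 and 8.36 in DM dogs and 7.51, 7.30, 6.48 and 6.49 in control dogs (0.28, SE 0.79). KCNN2, a small-conductance calcium-activated channel, had 0.14 (SE 0.75), and the beta subunit KCNE3 had 0.14 and 0.47. In each of these the spread among dogs of 1 group exceeded the difference, and the estimates for KCNMA1, KCNMB1, KCNN2 and the first of KCNE3 changed sign with scaling to the hybridization controls.

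The other potassium channel genes, known mainly from neurons or lymphocytes, were KCNA2, KCNA3, KCNB2, KCNC1, KCNH7, KCNJ6, KCNMB4 and KCNQ3. Their log2 fold changes ran from -1.09 (KCNA2) to 1.34 (KCNH7), and the lowest adjusted p was 0.44 (KCNH7). The groups overlapped in all of them.

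The calcium channels included the pore of the L-type channel. CACNA1C (Cav1.2) carries the calcium current of the myocyte and is the target of dihydropyridine drugs, and 4 probe sets read it. Probe set 1582773_at had 6.33, 7.32, 6.19 and 7.77 in DM dogs and 4.80, 5.42, 5.16 and 5.41 in control dogs. In deposited signal these were 103, 174, 52.6 and 138 in DM dogs and 5.59, 20.9, 15.2 and 27.9 in control dogs. All control values lay in the range of the weakest 25% of the array's signals. Every DM dog was above every control dog, with means of 6.90 ± 0.77 in DM dogs and 5.20 ± 0.29 in control dogs. The log2 difference was 1.71 (SE 0.59, adjusted p = 0.18), and it was 1.01 with an offset of 64 and 0.31 with scaling to the hybridization controls.

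The other CACNA1C probe sets were less clear. Probe set 1583015_s_at had 7.33, 9.84, 9.09 and 6.03 in DM dogs and 6.14, 6.53, 6.46 and 5.05 in control dogs, so that dog 1111 lay among the control dogs (log2 difference 2.03, SE 0.82, adjusted p = 0.24). Probe set 1582781_at had 1.08 (SE 0.74). Probe set 1583014_at, with the strongest signal of the 4, had 7.14, 6.71, 8.80 and 5.05 in DM dogs and 8.05, 7.47, 7.49 and 6.04 in control dogs, with a log2 difference of -0.33 (SE 0.79), from the same GenBank entry as 1583015_s_at. Without DM dog 1111 it was 0.29.

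The T-type pore CACNA1H had 5.87, 5.29, 7.01 and 7.80 in DM dogs and 8.22, 7.16, 7.31 and 7.45 in control dogs, where dog 1111 lay inside the control range (log2 difference -1.04, SE 0.67, adjusted p = 0.46). The beta subunits CACNB2 and CACNB3, which bring the pore to the membrane, had -0.08 (SE 0.86) and -0.94 (SE 0.69). ITPR2, the inositol trisphosphate receptor of the cardiac myocyte, had 0.11 (SE 0.59), with 7.28 to 8.88 in DM dogs and 7.50 to 8.19 in control dogs. The accessory subunits CACNA2D3, CACNA2D4 and CACNG3 and the skeletal muscle pore CACNA1S ran from -0.71 to 1.79, with a lowest adjusted p of 0.31 (CACNA2D4). All of these overlapped between the groups.

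The sodium channels on the array were mostly those of neurons, with SCN2A, SCN8A and SCN10A as pores. The beta subunit SCN2B, a cell adhesion protein of the channel complex that is also found in heart, had the smallest p of the class. Probe set 1583052_at had 5.58, 8.09, 7.85 and 7.94 in DM dogs and 4.86, 7.14, 4.91 and 7.58 in control dogs. The DM dogs other than 0292 were above all control dogs, and the log2 fold change was 1.25 (SE 0.82, adjusted p = 0.47), or -0.03 with scaling to the hybridization controls. The second SCN2B probe set had 0.38 (SE 0.74). SCN10A, described in cardiac nerves and conduction tissue of mouse and human, had 0.26 (SE 0.77), and the others ran from -0.18 to 0.66.

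Among chloride channels, CLIC2, CLCN4 and CLIC4 had the higher signals in DM dogs (all 3 turn below 0 with scaling to the hybridization controls, at -0.07, -0.92 and -1.24 log2). CLIC2 is a small soluble protein that can insert into membranes and that binds ryanodine receptors. Probe set 1587190_at had 10.65, 10.86, 11.66 and 10.48 in DM dogs and 8.50, 8.14, 8.84 and 9.64 in control dogs, or deposited signals of 1306, 1489, 3289 and 1428 in DM dogs and 252, 184, 399.7 and 715 in control dogs. The means were 10.91 ± 0.52 in DM dogs and 8.78 ± 0.64 in control dogs, with a log2 difference of 2.13 (SE 0.59, adjusted p = 0.12). Control dog D8 was the nearest to the DM dogs, and without it the value was 2.43. The adjusted p of CLIC2 in limma was 0.0454 with an offset of 64, 0.0329 with a variance trend and 0.0350 without D8 and 0292 together, and up to 0.956 with scaling to the hybridization controls.

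CLCN4 is a chloride and proton exchanger of endosomes. Probe set 1588039_s_at had 11.55, 11.59, 11.20 and 10.81 in DM dogs and 9.57, 9.45, 9.62 and 9.48 in control dogs. The control dogs, D8 included, lay within a narrow range, and all DM dogs were above it. The means were 11.29 ± 0.36 in DM dogs and 9.53 ± 0.08 in control dogs, with a log2 difference of 1.76 (SE 0.54, adjusted p = 0.14), which was 0.90 with median centring. Its adjusted p over the alternatives ran from 0.0494 (offset of 64) to 0.517 (median centring). The other CLCN4 probe sets, 1602915_at and 1603763_s_at, had -1.10 (SE 0.73) and 0.56 (SE 0.60), and the groups overlapped in both.

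CLIC4, a CLIC protein of endothelium and other tissues, had 11.90, 11.95, 11.62 and 10.58 in DM dogs and 9.95, 9.44, 10.02 and 10.69 in control dogs. Dog 1111 lay just below D8, and all other DM dogs were above all control dogs (log2 difference 1.49, SE 0.59, adjusted p = 0.23). CLIC1, the related protein of macrophages and many other cells, had 4.99, 7.89, 5.26 and 8.47 in DM dogs and 8.55, 8.93, 8.58 and 6.46 in control dogs, with a log2 difference of -1.48 (SE 0.88, adjusted p = 0.42). In CLIC1 the groups overlapped, and with scaling to the hybridization controls it had -3.15.

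CLCN3, another vesicular exchanger, was the single channel gene with unadjusted calls in both directions. Probe set 1593770_at had 8.95, 5.97, 8.96 and 10.08 in DM dogs and 10.88, 10.83, 10.38 and 9.54 in control dogs (log2 difference -1.92, SE 0.82, adjusted p = 0.26). Its neighbour from the same GenBank entry, 1593769_at, had -1.15 (SE 0.65) and ran with it over the 8 dogs (r = 0.91, as a description). Probe set 1604178_at had 7.71, 6.54, 9.12 and 8.15 in DM dogs and 6.90, 7.20, 5.54 and 5.31 in control dogs (log2 difference 1.64, SE 0.71, adjusted p = 0.27). The strongest, 1603487_s_at, had -0.30 (SE 0.73). The lysosomal CLCN6 and CLCN7 had -0.05 and 0.09, and the skeletal muscle channel CLCN1 had -0.40, with SE of 0.81 to 0.88.

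Of the remaining cation channels, P2RX4, an ATP-gated channel of endothelium and myocytes, had 7.43, 7.08, 7.39 and 8.12 in DM dogs and 8.13, 8.32, 8.14 and 7.53 in control dogs (log2 difference -0.53, SE 0.56). TRPC4AP had 5.61, 7.05, 6.27 and 8.25 in DM dogs and 8.06, 8.42, 7.93 and 9.14 in control dogs, where dog 1111 overlapped (log2 difference -1.59, SE 0.67, adjusted p = 0.26). The ATP-gated channel P2RX3 of sensory neurons had 0.14, and the 3 probe sets of TRPM3 had -0.61, 0.52 and 1.15. Without TRPC4AP, 7 of 76 probe sets (9.21%) were lower at an unadjusted p under 0.05.

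Probe sets of 1 gene often disagreed. Of 16 channel genes with more than 1 probe set, 11 had log2 differences of both signs, 3 had only positive ones (KCNE3, SCN2A and SCN2B) and 2 only negative ones (KCNA2 and KCNIP2). Of the 7 genes with a separated probe set, KCNS3 and CLIC2 have a single probe set on the array, and KCNIP2 alone among the others had the same sign throughout. With each gene represented by its strongest probe set, 3 of 46 genes were higher and 4 lower at an unadjusted p under 0.05, against 8.9% and 12.5% of 6540 genes.

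**Figure D3:**
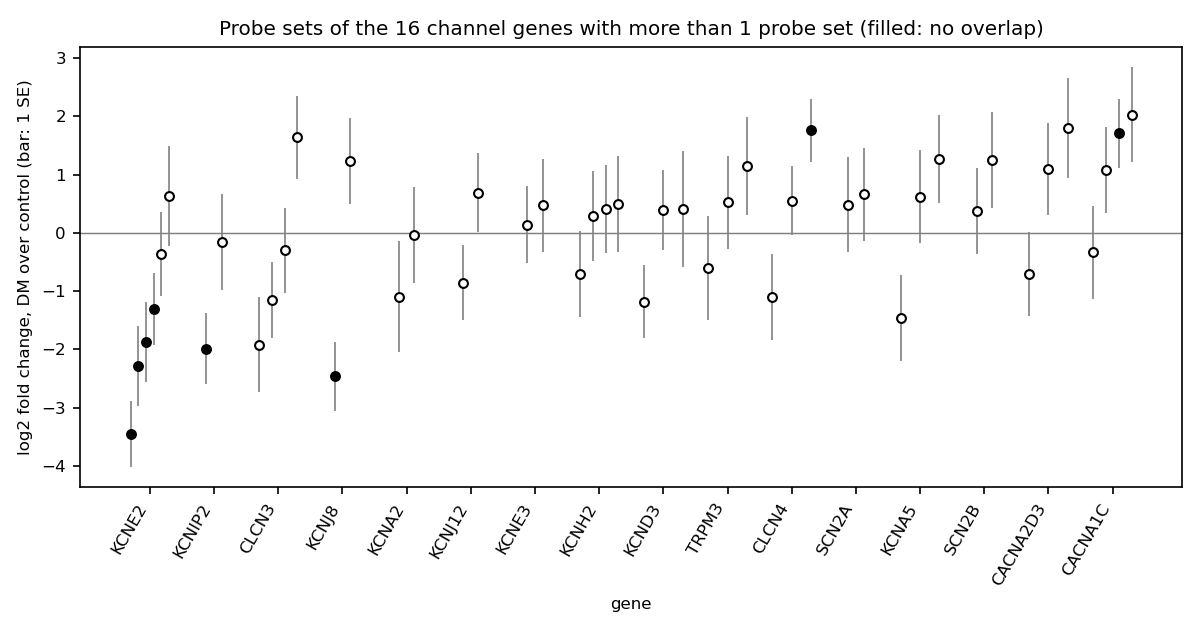
Log2 fold change (vertical axis, DM over control dogs) of every probe set of the 16 channel genes with more than 1 probe set. Points are estimates of limma, bars are 1 SE, and filled points have no overlap between the 4 DM dogs and the 4 control dogs. The 6 points of KCNE2 run from -3.44 to 0.63, the 2 of KCNJ8 lie at -2.46 and 1.24, and the 4 of CACNA1C run from -0.33 to 2.03.

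Channel probe sets were mostly dim. The median of their mean signals over the 8 dogs was 6.74 log2, against 7.07 in all probe sets. Ranked by this mean among all probe sets, 49 of 77 lay below the median. Of these, 24 lay in the lowest 25% of the ranks, and 10 of the 77 lay in the highest 25%. Chloride channels were an exception, with a median of 9.45. Dim and bright probe sets differed in sign on this array as a whole. In 5 bins of equal size from dim to bright, the log2 fold change of all probe sets had a median of 0.47, 0.36, -0.07, -0.37 and -0.24, and that of the channels was 0.41, 0.40, -0.33, -0.53 and -0.30, with 20, 20, 19, 9 and 9 of them. In each bin the channels had the same sign as the array, and the correlation of signal and log2 fold change over the 77 probe sets was -0.14. The separated probe sets of KCNE2, KCNJ8, KCNS3 and KCNIP2 lay below these medians, and those of CACNA1C, CLIC2 and CLCN4 above them.

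**Figure D4:**
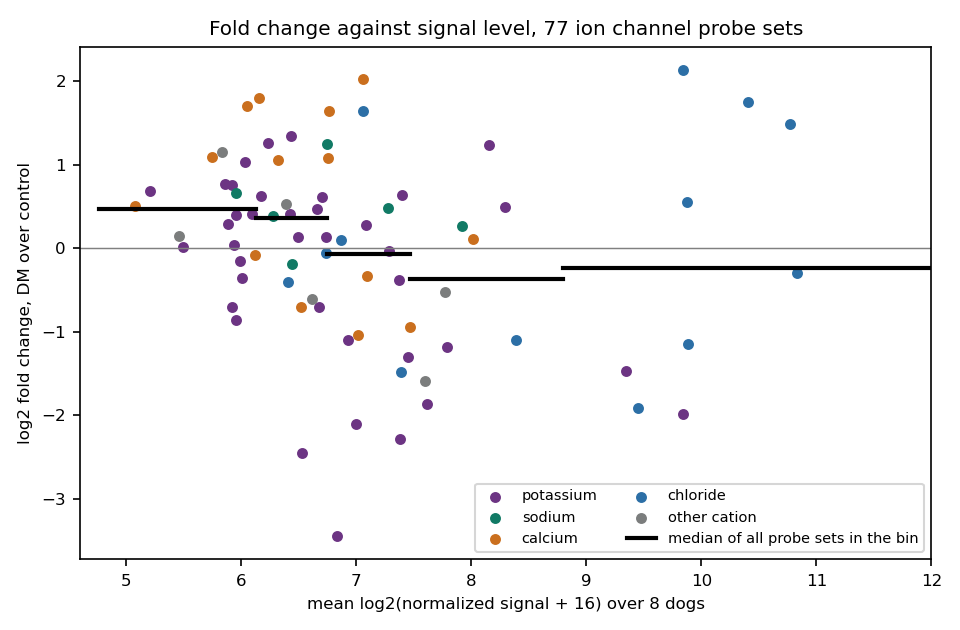
Log2 fold change (vertical axis, DM over control dogs) against the mean log2(normalized signal + 16) over 8 dogs for the 77 ion channel probe sets, coloured by class. Black lines mark the median of all probe sets in each of 5 bins of the signal, the last one running on past the axis, at 0.47, 0.36, -0.07, -0.37 and -0.24 from dim to bright.

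The number of channels that differed depended on the scale of the arrays. At an unadjusted p under 0.05, 7 channel probe sets were higher and 7 lower with the arrays as deposited, with median centring 1 and 10, and with scaling to the hybridization controls 0 and 29, of which 22 passed the adjusted p in limma, against 6 and 8 with quantile normalization. The array as a whole moved too, with 10.8%, 4.14% and 0.0629% of all probe sets higher and 7.08%, 13.4% and 45.2% lower on these 3 scales. On the last one 32.2% of all probe sets passed the adjusted p, so the channel counts there lay below the share of the array. For all probe sets the median moved to 0.34, -0.25 and -1.65 under these scales. Relative to that median, KCNE2 1583068_x_at stayed lower and CLIC2 higher under each of the 5 scales. These 3 scales move all signals of an array by the same factor, so the distance to the median changes little by construction. Both probe sets had also been named for their values on the quantile normalized scale, so this is a description only. The 6 potassium channel probe sets with no overlap and an unadjusted p under 0.05 kept their negative sign under all 5 scales. They had been selected for low DM values on the quantile normalized scale, and 3 of them read KCNE2.

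**Figure D5:**
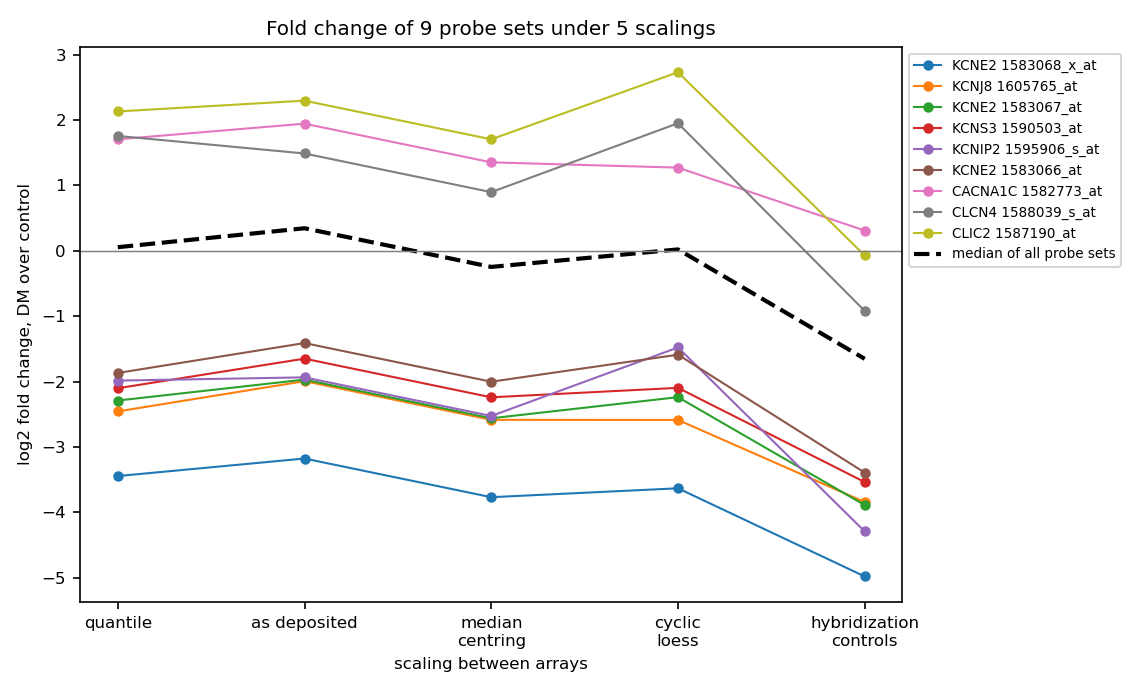
Log2 fold change (vertical axis, DM over control dogs) of 9 ion channel probe sets under 5 ways of scaling the arrays (horizontal axis), 1 coloured line per probe set, with the median of all 23836 probe sets as a dashed line. The 6 potassium channel lines stay below 0 throughout, from -1.41 to -4.98, while CLCN4 and CLIC2 fall below 0 with scaling to the hybridization controls, where the dashed line is at -1.65.

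Partners of the channels did not move as a group. Of 63 listed partners and regulators, such as anchoring proteins, exchangers and kinases, 30 are on the array. Each was read by its probe set with the highest mean signal. Of these genes 17 were lower and 13 higher in DM dogs, with a median log2 fold change of -0.27. At an unadjusted p under 0.05, 6 were lower and 5 higher. Both counts lay above the shares of all genes with 1 probe set per gene, 12.5% and 8.9%. None had an adjusted p under 0.05. In SLC8A1, GEM and AKAP9 every DM dog was above every control dog, and in FGF13, FKBP1B and RYR2 every DM dog was below. Of all genes with 1 probe set per gene, 6.01% were above and 8.73% below in this way. Partner values are given here on the quantile normalized scale alone. With scaling to the hybridization controls, 0.126% of all probe sets were above and 16.8% below without overlap. SLC8A1, the sodium-calcium exchanger that removes calcium after each beat, had 8.26, 7.76, 9.48 and 8.96 in DM dogs and 6.93, 6.34, 5.01 and 6.64 in control dogs, higher in every DM dog (log2 difference 2.39, SE 0.65, adjusted p = 0.11). GEM, a small GTPase that inhibits L-type calcium channels through their beta subunit, had 6.54, 9.63, 8.97 and 6.52 in DM dogs and 5.53, 5.02, 4.83 and 4.98 in control dogs, also separated (2.83, SE 0.76, adjusted p = 0.11). All GEM control values lay in the range of the weakest 25% of the array's signals (below 5.75).

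AKAP9, which anchors protein kinase A at the slow delayed rectifier, had 13.12 to 13.74 in DM dogs and 10.56 to 13.08 in control dogs, with D8 the highest control dog (1.98, SE 0.66, adjusted p = 0.16). SLMAP, a protein of the sarcolemma, had 10.35 to 12.32 in DM dogs and 8.62 to 10.38 in control dogs (2.06, SE 0.66, adjusted p = 0.15). The spectrin SPTBN1, part of the membrane skeleton that holds channels with ankyrin, had 12.10, 10.81, 11.88 and 13.97 in DM dogs and 16.40, 15.96, 16.17 and 13.62 in control dogs (-3.35, SE 0.81, adjusted p = 0.0881). PRKAR1A, a regulatory subunit of protein kinase A, had 5.28 to 9.43 in DM dogs and 7.44 to 10.15 in control dogs (-2.53, SE 0.92, adjusted p = 0.20). FGF13, a fibroblast growth factor homologue that binds sodium channels, had 8.62, 11.48, 11.21 and 11.26 in DM dogs and 12.75, 12.44, 11.86 and 12.71 in control dogs (-1.80, SE 0.71, adjusted p = 0.23). FKBP1B, which binds the calcium release channel RYR2 of the sarcoplasmic reticulum, had -1.10 (SE 0.56, adjusted p = 0.34), and RYR2 itself had -1.05 (SE 0.58, adjusted p = 0.39). These 3 were named after their values were seen. The paper lists another RYR2 probe set, with a larger decrease on its own normalization, that is not given here. In SPTBN1 and SLMAP the control dog D8 lay within the DM range, and in PRKAR1A D8 and 1111 each lay within the range of the other group.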

How the data were processed

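Left ventricular RNA of 4 DM dogs and 4 control dogs was hybridised singly to Affymetrix Canine Genome Arrays. The deposited intensity values are MAS 5.0 signals, which the authors scaled so that each array has a mean of 500 after trimming 2% at either end. The RMA normalization that the methods also name is not in these values and was not applied. Detection calls and scanner images were not used here, so no probe set was judged present or absent. Gene symbols came from the platform annotation of the array. Of 23836 probe sets 10549 have 1 symbol, 138 have several and 13149 have none listed. The gene identifiers of 76 of the 77 channel probe sets were found in RefSeq, and the exception was 1 of SCN2B. The 77 control probe sets of the manufacturer were left out of the tests.

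After scaling to this mean, the arrays were quantile normalized and the signals were written as log2(signal + 16). The group difference was fitted for all 23836 probe sets in R 4.3.3 with limma 3.58.1 (lmFit and eBayes, group alone, two-sided). Its p values were adjusted by Benjamini-Hochberg, with a threshold of 0.05. On these values the nominal criteria of the methods were used with a two-class test of equal variances. The authors also stabilized the variance in a way not given in the sources used here, which was not repeated, so this is not the authors' own test. Means of marker lists were compared over all 70 exact assignments of 4 dogs against 4. The same code was tested on simulated data. No source says that the dogs were paired. Figures were drawn with matplotlib 3.10.9.

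The channels, the gene lists and the rule for named probe sets were chosen with earlier results of these data known. The rule took probe sets with an unadjusted p under 0.05 and no overlap between groups, the smallest p of each class, and the strongest probe set of each of 76 heart channel genes, 27 of which are on the array. Of the partners it took the 6 with the smallest p. All other channel probe sets are given for completeness and were named after their values were seen. Alternatives were other scalings, offsets of 1 and 64, a mean signal of at least 100, a variance trend with a robust prior, 1 probe set per gene, and dogs left out.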

Additional observations from a re-analysis of the deposited data

Results flagged for a closer look

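In groups of 4 dogs, a dog was marked where its distance to the nearest other dog was a larger share of its group's range than Dixon's 95% critical value allows. Of 66 groups examined for the named channel probe sets 4 were marked, and chance marks about 1 in 20 groups. SCN2B 1583052_at had 5.58 in DM dog 0292 and 7.85 to 8.09 in the other DM dogs, a share of 0.905. KCNE2 1583067_at had 9.06 in control dog D5 and 8.32 to 8.37 in the other control dogs, a share of 0.934. CLIC1 1605438_at had 6.46 in control dog D8 and 8.55 to 8.93 in the other control dogs, a share of 0.847. KCNH2 1603661_at had 5.41 in D8 and 8.60 to 9.22 in the other control dogs, a share of 0.838. D8 is also the control dog whose hybridization controls, at 15.77 log2, lay in the DM range, and the part of this in the CLIC1 and KCNH2 values was not tested.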

How the results depend on the processing

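The count of channel probe sets past the adjusted p, 0 in the report, was 1 with median centring or cyclic loess, 2 with a variance trend, 3 with an offset of 64 or without D8 and 0292, 22 with scaling to the hybridization controls, and 0 to 2 with 1 dog left out (2 without D8, 1 without 1111). Of all probe sets, 1%, 0.101%, 3.66%, 1.87%, 3.99% and 32.2% passed with median centring, cyclic loess, the variance trend, the offset of 64, without D8 and 0292 and with hybridization control scaling, and 1.36% and 1.99% without D8 and without 1111. KCNE2 1583068_x_at was among them each time. At an unadjusted p under 0.05, 1 was higher with median centring, 0 were higher and 29 lower with hybridization control scaling, and 3 were higher and 4 lower with 1 probe set per gene. The shares of all were 4.14% higher with median centring, 0.0629% higher and 45.2% lower with hybridization control scaling, and 8.9% and 12.5% of genes. Leaving out 1 dog gave 4 to 8 higher and 6 to 10 lower, against 4.99% to 9.69% and 5.71% to 10.7% of all. Without overlap, 0 were higher and 16 lower with hybridization control scaling, 10 were higher and 13 lower without D8 and 0292, 3 were lower with 1 probe set per gene, and 3 to 8 were higher and 7 to 11 lower with 1 dog left out, where fewer dogs overlap less often by construction. Of all probe sets, 0.126% were higher and 16.8% lower with hybridization control scaling, 14.9% and 15.4% without D8 and 0292, and 8.73% of genes lower with 1 probe set per gene. With 1 dog left out, 5.85% to 9.25% of all were higher and 6.46% to 11.7% lower. By the criteria of the methods, 0 were higher with median centring, 0 higher and 15 lower with hybridization control scaling, and 2 lower with 1 probe set per gene or without D8 and 0292, while leaving out 1 dog gave 2 to 4 higher and 2 to 5 lower. The shares of all were 1.2% higher with median centring, 0.0923% higher and 10.8% lower with hybridization control scaling, 3.67% of genes lower and 3.52% lower without D8 and 0292. With 1 dog left out they were 1.38% to 3.06% higher and 1.17% to 4.14% lower. The median log2 fold change of the channels was 0.47 as deposited, -0.12 with median centring, -0.051 with cyclic loess and -1.35 with hybridization control scaling, while that of all probe sets was 0.34, -0.25, 0.02 and -1.65. It was 0.04 to 0.25 with 1 dog left out. The cause of these shifts was not tested.

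Of 557 values of 33 named probe sets under the alternatives, 503 kept their sign and 54 did not, and 16 probe sets had no change of sign. With hybridization control scaling the log2 fold change turned to -0.071 (CLIC2), -0.92 (CLCN4 1588039_s_at), -1.24 (CLIC4), -1.57 (ITPR2), -1.52 (CLCN7), -1.54 (KCNE3 1592423_at), -1.73 (KCNH2 1603661_at), -0.78 (KCNJ8 1603513_at), -0.37 (KCNMA1), -1.22 (KCNMB1), -1.48 (KCNN2), -1.74 (SCN10A) and -0.025 (SCN2B 1583052_at). With median centring it turned to -0.17 (CLCN7), -0.14 (KCNE3), -0.16 (KCNN2) and -0.021 (SCN10A). With cyclic loess it turned to -0.029 (CLCN7), -0.054 (KCNE3), -0.15 (KCNN2) and 0.14 (CLCN3 1603487_s_at). As deposited it was 0.19 (CACNA1C 1583014_at), 0.17 (CACNB2) and 0.33 (CLCN6). CACNB2 had 0.087 with an offset of 64, and KCNN2 had -0.0034 with an offset of 1. Without D8 and 0292 it was 0.57 (CLCN3 1603487_s_at), 0.52 (CLCN6), -0.70 (KCNH2 1603661_at) and -0.72 (SCN10A).

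With 1 dog left out, 12 of these probe sets changed sign, and all of them overlapped between groups. Their ranges were -0.96 to 0.29 (CACNA1C 1583014_at), -0.91 to 0.45 (CACNB2), -0.63 to 0.41 (CLCN3 1603487_s_at), -0.57 to 0.69 (CLCN6), -0.36 to 0.71 (CLCN7), -0.16 to 0.39 (ITPR2), -0.23 to 0.47 (KCNE3 1592423_at), -0.39 to 0.89 (KCNH2 1603661_at), -0.30 to 1.55 (KCNMA1), -0.10 to 1.04 (KCNMB1), -0.46 to 0.74 (KCNN2) and -0.34 to 0.78 (SCN10A). No paired analysis was possible because the labels give dog names and no pairing. With 4 dogs per group the median SE of a channel probe set was 0.74 log2, and signal over background was not judged, since detection calls were not used here.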
